A study of Mus musculus with 4 samples.

Results

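The peroxiredoxins and other antioxidant enzymes examined here were 10 genes picked by symbol, namely 5 peroxiredoxins (Prdx1, Prdx2, Prdx3, Prdx5 and Prdx6), 2 glutathione peroxidases (Gpx1 and Gpx4), 2 superoxide dismutases (Sod1 and Sod2) and catalase (Cat). All 10 were found among the 17104 genes of the deposited expression table, and all 10 had a mean high enough to be tested. The transcriptomes came from leukemic stem cells (LSCs), sorted as YFP+, c-kit+ cells from the bone marrow of male C57 mice with acute myeloid leukemia 6 weeks after a secondary transplantation. Poly(A) RNA was sequenced from 2 replicates of the CD37 fl/fl group, called controls from here on, and from 2 of the CD37 -/- group, and the comparison asked which transcripts differ once the tetraspanin CD37 is deleted. In both groups the leukemia was started by a retrovirus that carries the MLL-AF9 fusion gene and YFP, put into lineage-negative bone marrow cells whose Cd37 alleles were floxed and which expressed a tamoxifen-inducible Cre recombinase from the Rosa26 locus. Recipients of the CD37 -/- group were given tamoxifen and those of the CD37 fl/fl group corn oil, so the controls carried the floxed alleles and the Cre as well but had no tamoxifen. Cells then passed into new irradiated hosts that also received supporting bone marrow cells. Whether the replicates of a group came from separate mice is not stated, so that the p-values measure only the spread between these libraries.

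Reactive oxygen species are formed by the respiratory chain and by the NADPH oxidase of myeloid cells. Superoxide dismutases convert superoxide to hydrogen peroxide, and peroxiredoxins, glutathione peroxidases and catalase remove the peroxide. Peroxiredoxins attack it with a reactive cysteine that is then restored by thioredoxin, or in the case of PRDX6 by glutathione, while GPX1 and GPX4 use selenocysteine and glutathione. Leukemic stem cells are known for keeping reactive oxygen species low.

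The catalytic residue sets these families apart and can be read in the coding sequence, which is why these sites are shown. Each stretch below was read from the GENCODE M21 transcripts (mouse build GRCm38), 5′ to 3′ in frame, with the codon of the reactive cysteine in capitals.
Prdx1: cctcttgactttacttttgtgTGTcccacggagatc
Prdx2: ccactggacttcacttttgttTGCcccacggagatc
Prdx3: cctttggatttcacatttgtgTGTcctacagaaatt
Prdx5: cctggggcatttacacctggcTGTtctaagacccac
Prdx6: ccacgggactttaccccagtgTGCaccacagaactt
The cysteine is codon 52 in Prdx1, codon 51 in Prdx2, codon 109 in Prdx3, codon 96 in Prdx5 and codon 47 in Prdx6. In the glutathione peroxidases the catalytic residue is encoded by an in-frame TGA, a stop codon that is read as selenocysteine. It is codon 47 of Gpx1 and codon 73 of Gpx4.
Gpx1: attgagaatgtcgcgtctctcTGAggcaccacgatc
Gpx4: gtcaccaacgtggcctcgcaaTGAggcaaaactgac
Although the sites of Prdx1, Prdx2 and Prdx3 look alike, the enzymes share little exact sequence with each other. The longest identical run between any pair of the 10 mRNAs was 18 bases (Prdx1 with Prdx3, and Prdx1 with Sod2).

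Values in the table are FPKM, fragments per kilobase of gene length relative to library depth, and the length was that of the whole gene including introns. Levels of different genes are therefore given as exon RPKM (reads per kilobase of exon, relative to library depth in the same way), from reads recovered from the FPKM (98.97% to 99.01% of values in a library came out as whole reads). Recovered totals were between 15327357 and 22627491 reads in the 4 libraries. Cd37 (ENSMUSG00000030798) was read first as a check of the labels, and its FPKM was 56.6 and 46.8 in the controls and 23.2 and 22.9 in CD37 -/- LSCs, that is 44.6% of the CD37 fl/fl mean (log2 fold change -1.12, standard error 0.24, adjusted p = 0.104). Only part of the gene lies between the LoxP sites, and reads inside and outside it were not separated here. Kit, the gene of the sorted c-kit receptor, was at an exon RPKM of 1.56 to 3.99, while the 14 neutrophil and macrophage markers summed to an exon RPKM of 5720 and 920 in CD37 fl/fl and to 9909 and 7233 in CD37 -/- libraries. CD37 fl/fl replicate 2 stood apart by this low sum. The 10 erythroid markers summed to 90.6 and 8.39 against 919 and 239, with 8 of the 10 higher in both CD37 -/- libraries. The 5 B cell markers summed to 30.9 and 37.0 against 20.7 and 16.2, almost all of it Cd79b, and the 4 T and NK cell markers to at most 1.33. The 9 leukemia and stem cell markers summed to 353 and 275 against 240 and 204. Yet 4 of the 9 were higher and 2 lower without overlap, beside 38.2% and 23.7% of all tested genes, so the sum does not speak for each marker. No marker of these lists was at 0 in all 4 libraries.

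Gpx1 was by far the most abundant of the enzymes. Its exon RPKM averaged 1533 over the 4 libraries (range 1109 to 1858), higher than 99.8% of all genes with a recovered value. Prdx5 followed at 358 (260 to 482) and Prdx6 at 123 (99.2 to 132). On this scale these 3 did not overlap with each other or with any lower enzyme in any library. The scale divides by all exons of a gene merged, 4804 bases for Prdx6 and 3970 for Sod1. Their main mRNAs are shorter, with 2387 bases for Prdx6 and 611 different stretches of 31 bases for Sod1. Levels per single mRNA were not compared, so the order between enzymes holds for this scale only.

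A middle group of 5 enzymes came next. Gpx4 averaged 70.2, Prdx1 65.5, Prdx2 55.3, Sod1 52.9 and Prdx3 46.4. Their ranges overlapped between all neighbours in this order, so their order was not set beyond the spread. For Gpx4 only reads at the gene itself were counted here. Its processed pseudogene Gpx4-ps2, described below, averaged an exon RPKM of 561, so the place of Gpx4 among the enzymes is not settled. Cat averaged 19.4 and reached at most 25.1, below the lowest library of Prdx3 (27.9). Sod2 was last at 11.4 (10.8 to 11.7) and overlapped with Cat, yet still lay above 74.1% of all genes. Reads of the 10 genes together made up 0.527% and 0.491% of the CD37 fl/fl and 0.426% and 0.355% of the CD37 -/- libraries, and Gpx1 alone held 45.0% to 52.7% of them. Reads of Gpx4-ps2 are left out of these shares.

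**Figure D1:**
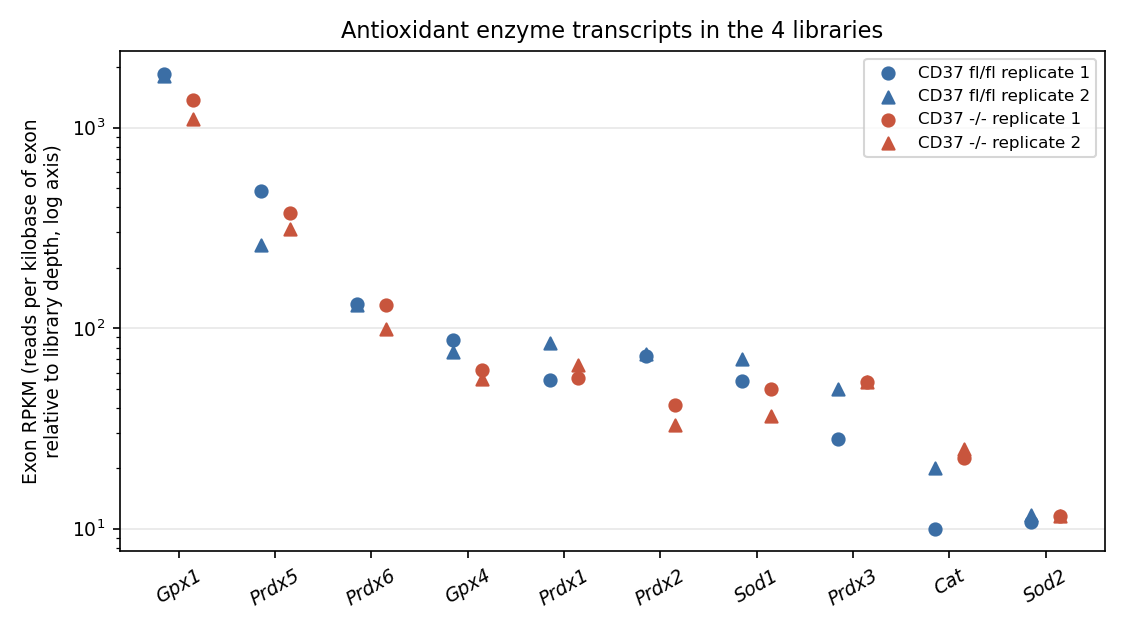
Exon RPKM (reads per kilobase of exon relative to library depth, log axis) of the 10 antioxidant enzymes, ordered by their mean. Each symbol is 1 library, blue for CD37 fl/fl and red for CD37 -/-, circles for replicate 1 and triangles for replicate 2. Gpx1 lies between 1109 and 1858. On this scaling both CD37 -/- symbols of Prdx2, Gpx1, Gpx4 and Sod1 lie below both CD37 fl/fl symbols. Quantile normalization turns the sign for Gpx1, and TPM rescaling brings the log2 fold changes of Gpx4 and Sod1 to -0.083 and -0.15. Overlap was not counted under those scalings.

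None of the enzymes passed an adjusted p under 0.05 between the groups (limma on log2(FPKM + 1), Benjamini-Hochberg adjustment over the 6761 genes whose mean FPKM was 1 or more). The same held for all tested genes, of which 0 (0.0%) passed, and limma-voom on the recovered reads also called 0 of 12901 genes. Robust eBayes called 88 genes, none of them one of these enzymes. At an unadjusted p under 0.05, 1 of the 10 enzymes was lower (Prdx2) and 0 were higher in CD37 -/-, beside 7.96% of all tested genes lower (538 genes) and 16.1% higher (1088 genes). With limma-voom 2 enzymes were lower at that level, Prdx2 and Gpx1, and 0 higher, beside 6.1% of its genes lower and 19.2% higher. The groups did not overlap in 7 of the 10, 5 lower and 2 higher, where 23.7% of all tested genes were lower and 38.2% higher without overlap. Of the 5, Prdx6 was lower only by 56.37 against 56.39 FPKM in the nearest libraries. All counts without overlap hold for the FPKM as given and were not repeated under other scalings.

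The median log2 fold change of the 10 enzymes (CD37 -/- minus CD37 fl/fl) was -0.18, and that of all tested genes 0.11. Scaling between the libraries moved the second value, to 0.49 when every library was rescaled to the same sum (TPM rescaling) and to -0.022 with quantile normalization. Limma-voom gave 0.26 with the depth scaling kept, but over 12901 genes and on another log scale. Measured against the all-gene median, Prdx1, Prdx2, Prdx6, Gpx4 and Sod1 lay below it in all 14 settings computed, Gpx1 and Sod2 in 13 and Prdx5 in 12. Prdx3 and Cat lay above it in all 14 settings. The replicate block and robust eBayes repeat the fold changes of the main fit, so their positions were fixed by it. The distance of the enzymes' median from the all-gene median ran from -0.064 (quantile normalization) to -0.45 (limma-voom). The 8 enzymes below the all-gene median in most settings are also those in the shortest coding-length bin described below. That bin had a median of -0.16 in the main fit, with 38.1% of its genes higher in CD37 -/-.

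**Figure D2:**
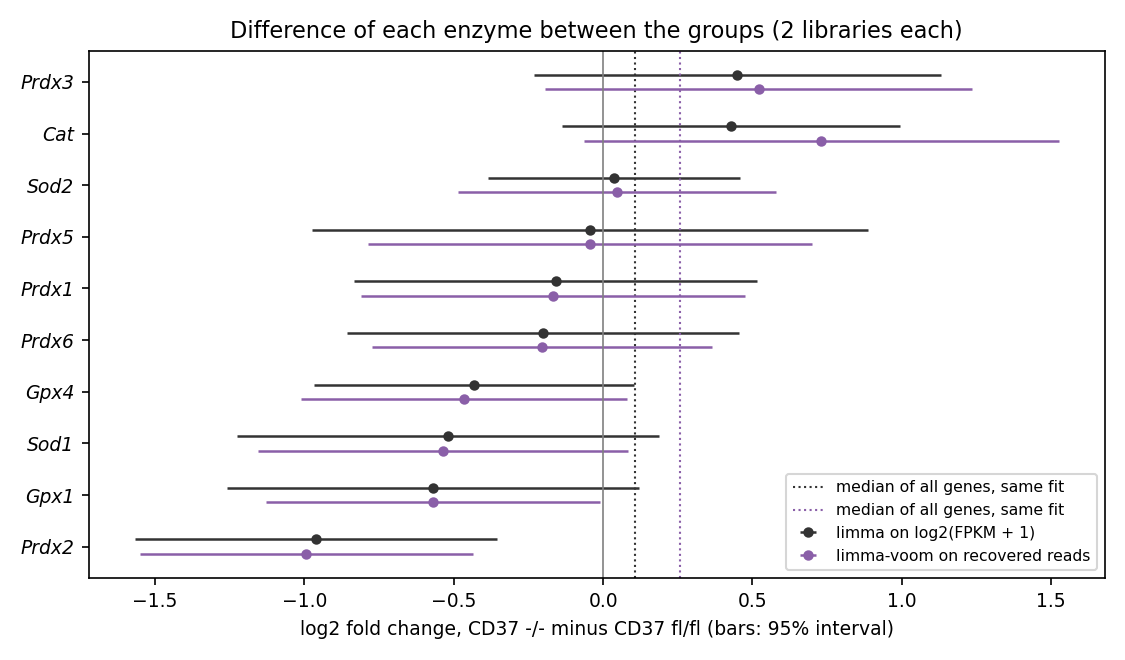
The log2 fold change (CD37 -/- minus CD37 fl/fl) of each enzyme on the horizontal axis, with its 95% interval, from limma on log2(FPKM + 1) in black and limma-voom on recovered reads in purple. Dotted lines mark the median of all genes in the same fit, 0.11 and 0.26. Prdx2 has the lowest value (-0.96) and is the enzyme whose interval leaves out 0 in both fits. Under TPM rescaling Prdx1, Prdx5 and Prdx6 turn positive, and under quantile normalization Prdx5 and Gpx1 turn positive and Sod2 negative.

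Prdx2, a cytosolic peroxiredoxin that is especially abundant in red blood cells, had the largest difference of the 10 in the main fit, though under TPM rescaling Cat (0.96) and Prdx3 (0.88) differed by more than Prdx2 (-0.61). Its FPKM was 42.0 and 43.3 in the controls (42.7 ± 0.916, SD, n = 2) and 24.0 and 19.1 in CD37 -/- LSCs (21.6 ± 3.45, SD, n = 2), or 50.6% of the control mean, from 2236 to 3940 reads a library. Both CD37 -/- libraries were lower than both controls, by far more than the replicates of either group differed. The log2 fold change was -0.96 (standard error 0.25, 95% interval -1.57 to -0.35), with an unadjusted p of 0.00852 and an adjusted p of 0.121 from limma. It ran from -1.24 to -0.61 over 13 alternatives, with adjusted p from 0.0831 to 0.38. The erythroid markers moved the other way, being higher in the CD37 -/- libraries, and the part of such cells in the Prdx2 values was not tested. In such bulk RNA, fewer cells of a type and less RNA per cell cannot be told apart.

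Prdx2 (ENSMUSG00000005161, chr8:84969587-84974834, plus strand, GRCm38) shares 351 bases with Junb and 181 bases with Rnaseh2a on the opposite strand. Junb, an immediate early transcription factor, had an FPKM of 66.8 and 54.4 in the controls and 53.2 and 75.9 in CD37 -/-, with overlapping groups. Rnaseh2a, a subunit of ribonuclease H2, was at 9.31 and 10.7 against 5.95 and 4.09. The libraries were strand-specific, but whether strand was used in counting is not given in the sources used here.

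Genes with a pattern like that of Prdx2 over the 4 libraries were sought among the 2583 protein-coding genes whose mean FPKM was 5 or more. By the root mean square distance of centred log2(FPKM + 1) values, the nearest were Gm11273 (0.037), Polr2e (0.044), Cox4i1 (0.045), Arl2 (0.060) and Psme2 (0.071). For Prdx3 they were Wdr55 (0.026), Slc1a5 (0.036), Cct2 (0.037), Ifrd2 (0.050) and Apex1 (0.053). With 4 libraries such distances are descriptions of these samples.

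Prdx1, the other main cytosolic peroxiredoxin, had an FPKM of 11.0 and 16.9 in the controls and 11.2 and 13.1 in CD37 -/- LSCs. The CD37 -/- values lay within the span of the controls (log2 fold change -0.16, 95% interval -0.83 to 0.52, adjusted p = 0.735), and the sign turned with TPM rescaling (0.21) and without CD37 fl/fl replicate 2 (0.13). An interval this wide leaves room for a moderate difference either way.

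Prdx6, which uses glutathione and also has phospholipase activity, was at 56.9 and 56.4 in the controls and at 56.4 and 42.9 in CD37 -/- LSCs. One value of the CD37 -/- group was level with the lower control and the other lay beneath both (log2 fold change -0.20, adjusted p = 0.656, and 0.18 under TPM rescaling). Without CD37 -/- replicate 2 the value was -0.0070, and without CD37 -/- replicate 1 it was -0.39.

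Prdx3 resides in mitochondria, where it removes peroxide made by the respiratory chain. Its FPKM was 3.93 and 7.00 in the controls and 7.57 and 7.59 in CD37 -/- LSCs. Both CD37 -/- libraries were above both controls, but CD37 fl/fl replicate 2 was much nearer to them than to its own replicate. The difference on the log2 scale was 0.45 (standard error 0.28, adjusted p = 0.348), and it was 0.10 without CD37 fl/fl replicate 1 and was 0.80 without CD37 fl/fl replicate 2.

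Prdx5, found in mitochondria, peroxisomes and the cytosol, had the largest spread within a group on the log2(FPKM + 1) scale. It was at 302 and 163 in the controls and at 236 and 197 in CD37 -/- LSCs, so that the controls were both the highest and the lowest library. The log2 fold change of -0.043 had a 95% interval of -0.97 to 0.89 (adjusted p = 0.955), turned to 0.40 without CD37 fl/fl replicate 1 and was -0.49 without CD37 fl/fl replicate 2, and was positive under TPM rescaling (0.34) and quantile normalization (0.36).

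The low Prdx5 value fell in CD37 fl/fl replicate 2, the library with the low neutrophil and macrophage marker sum of 920. Msrb1, a methionine sulfoxide reductase, and Cyba, a membrane subunit of the NADPH oxidase, were lowest in that library too, at 56.8 against 62.9 to 109 and at 94.2 against 106 to 198 FPKM. What part the cell composition had in these values was not tested.

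Gpx1 (ENSMUSG00000063856, chr9:108338903-108340343, plus strand, GRCm38), the cytosolic glutathione peroxidase, was lower in both CD37 -/- libraries. Its FPKM was 1858 and 1798 in the controls (SD 42.6, n = 2) and 1368 and 1109 in CD37 -/- LSCs (SD 184, n = 2), from 34981 to 44900 reads a library, or 67.7% of the control mean. The groups did not overlap, and limma gave a log2 fold change of -0.57 (standard error 0.28, adjusted p = 0.262), with a positive value of 0.069 under quantile normalization. Limma-voom gave -0.57 as well, at an unadjusted p of 0.0466 and an adjusted p of 0.191.

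Gpx4, which reduces lipid hydroperoxides and restrains ferroptosis, had an FPKM of 16.3 and 14.1 in the controls and 11.5 and 10.4 in CD37 -/- LSCs, again without overlap. On the log2 scale the groups differed by -0.43 (standard error 0.22, adjusted p = 0.269). This was negative in all 14 alternatives, from -0.86 to -0.083, with adjusted p from 0.0962 to 0.814. Among these, the replicate block, robust eBayes and the filter of all genes above 0 keep the main value by design.

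Most reads of Gpx4 sequence were not counted at the gene itself. Gpx4-ps2 (ENSMUSG00000110841), a transcribed processed pseudogene without introns at chr10:45875291-45876086 (GRCm38, plus strand), holds 73.6% of the stretches of 31 bases in the Gpx4 mRNA. The functional gene lies on the same chromosome at chr10:80047166-80056439. Gpx4-ps2 had 10255 and 8945 reads in the controls and 5579 and 6498 reads in CD37 -/- LSCs, against 2310, 2258, 1894 and 2182 reads at Gpx4. The copy thus took 81.6% and 79.8% of the summed reads in the controls and 74.7% and 74.9% in CD37 -/-, and which gene each read came from cannot be told from the table.

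Added together as CPM (reads relative to library depth), gene and copy reached 820 and 647 in the controls and 421 and 384 in CD37 -/- LSCs. The sum had a log2 fold change of -0.86 (standard error 0.25, adjusted p = 0.0962) by limma-voom, beside -0.47 (adjusted p = 0.258) for Gpx4 alone and -0.97 (adjusted p = 0.0878) for the copy alone. The size of the Gpx4 difference therefore depended on how reads of the copy were treated, and the sum did not pass the threshold either. This sum was computed after the data were seen.

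**Figure D3:**
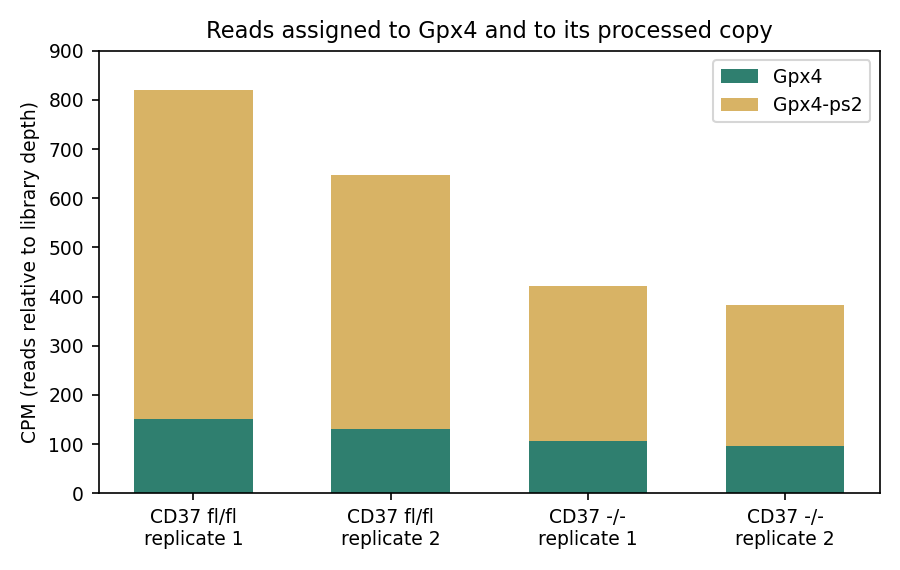
CPM (reads relative to library depth) assigned to Gpx4 (green) and to its processed copy Gpx4-ps2 (yellow), stacked, in each of the 4 libraries. The summed bars reach 820 and 647 in the controls and 421 and 384 in CD37 -/-, and the copy holds the larger part of every bar.

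Other copies took fewer reads. Gm21399 and Gm7204, processed pseudogenes with 13.2% and 11.3% of the Prdx1 stretches of 31 bases, had 80 to 183 and 8 to 16 reads, beside 2571 to 4520 at Prdx1. The copies of Prdx2 (Tdpx-ps1) and Sod1 (Gm8566), with 13.4% and 34.9% of the stretches, were not analysed here.

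Sod1, the cytosolic copper and zinc superoxide dismutase, had an FPKM of 38.8 and 50.2 in the controls and 35.6 and 26.1 in CD37 -/- LSCs. The groups did not overlap, though the gap between the nearest libraries (38.8 and 35.6) was smaller than the gap between the replicates of either group. A log2 fold change of -0.52 (standard error 0.29, adjusted p = 0.303) was obtained. It stayed negative in all 13 alternatives, from -0.78 to -0.15, though some of these keep the main value by design, as for Gpx4. Without CD37 -/- replicate 2 it was -0.30, and without CD37 fl/fl replicate 2 -0.34. Scaf4, which shares 650 bases with Sod1 on the opposite strand, was at 0.53 and 0.687 against 0.968 and 1.28.

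Sod2, the manganese enzyme of the mitochondrial matrix, was nearly level across the libraries. Its FPKM was 3.25 and 3.53 in the controls and 3.51 and 3.50 in CD37 -/- LSCs. Its log2 fold change of 0.037 had the narrowest 95% interval of the 10 (-0.39 to 0.46, adjusted p = 0.909), and the sign was negative with quantile normalization (-0.14), equal medians (-0.20) and without CD37 fl/fl replicate 1 (-0.010).

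Cat encodes catalase, the heme enzyme of peroxisomes. It was at 0.836 and 1.68 FPKM in CD37 fl/fl and at 1.87 and 2.09 in CD37 -/- LSCs, from 401, 910, 1039 and 1484 reads. Both CD37 -/- libraries were higher, and CD37 fl/fl replicate 1 was the lowest by a wide margin. On the log2(FPKM + 1) scale, which understates changes of low values, the difference was 0.43 (standard error 0.23, adjusted p = 0.294), and limma-voom gave 0.73 (standard error 0.35, adjusted p = 0.229). Without CD37 fl/fl replicate 1 it was 0.15, and without CD37 fl/fl replicate 2 it was 0.70.

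Coding length moved with the difference between the groups. Protein-coding tested genes were put into 4 bins of like gene number by coding length, and the median log2 fold change was -0.16 in the shortest bin (75 to 687 bases, 1455 genes), 0.038 in the next, 0.13 in the third and 0.29 in the longest (1773 to 16764 bases). Of the 10 enzymes 8 fell in the shortest bin, Prdx3 (771 bases) in the second and Cat (1581 bases) in the third. A like gradient appeared between the CD37 -/- replicates, where replicate 2 minus replicate 1 had a median of -0.18 in the shortest and 0.16 in the longest bin, while the CD37 fl/fl replicates gave 0.039 and 0.12. The part of length in the differences was not tested.

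**Figure D4:**
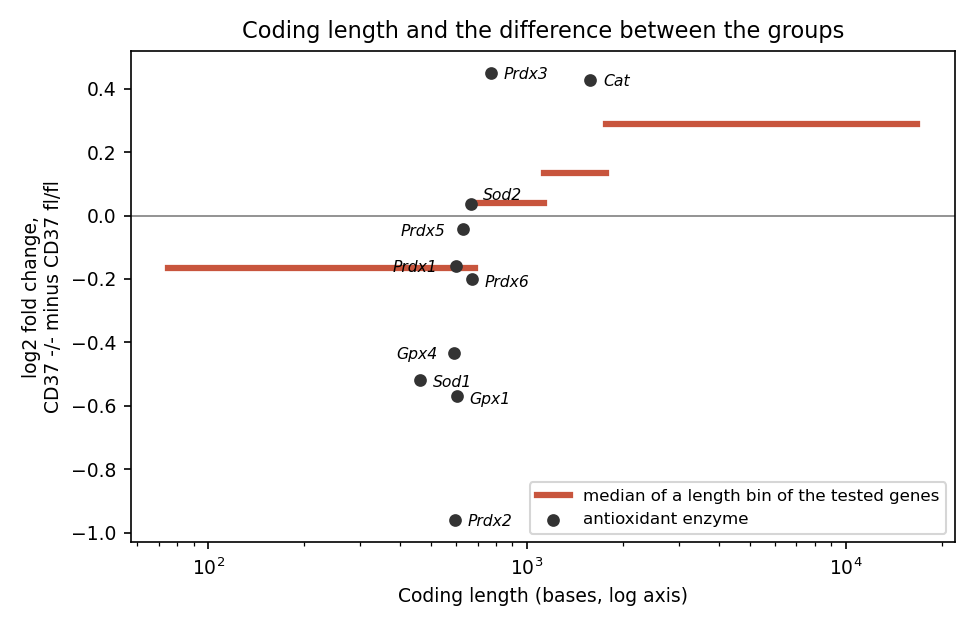
Coding length in bases (log axis) against the log2 fold change (CD37 -/- minus CD37 fl/fl). Red bars give the median of each bin of protein-coding tested genes over its span of lengths, from -0.16 in the shortest to 0.29 in the longest, and points are the 10 enzymes. Prdx2, Gpx1, Sod1, Gpx4 and Prdx6 lie below the bar of their bin, and Prdx1, Prdx5, Sod2, Prdx3 and Cat above theirs. Prdx6 (-0.200) and Prdx1 (-0.159) lie close to their bar (-0.165). Gpx1 turns positive under quantile normalization.

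The genes around these enzymes were followed through 9 lists that hold 102 other genes of the table, of which 63 were tested. At an adjusted p under 0.05, 0 of the 63 differed. At an unadjusted p under 0.05, 8 were higher and 7 lower in CD37 -/- LSCs, beside 16.1% higher and 7.96% lower among all tested genes. Without CD37 -/- replicate 2 the counts were 4 and 4, and all genes at that level went from 1626 to 809 of 6761. The median log2 fold change of the 63 was -0.046, beside 0.11 for all tested genes. Without overlap, 23 of the 63 were higher and 20 lower, beside 38.2% higher and 23.7% lower among all tested genes.

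**Figure D5:**
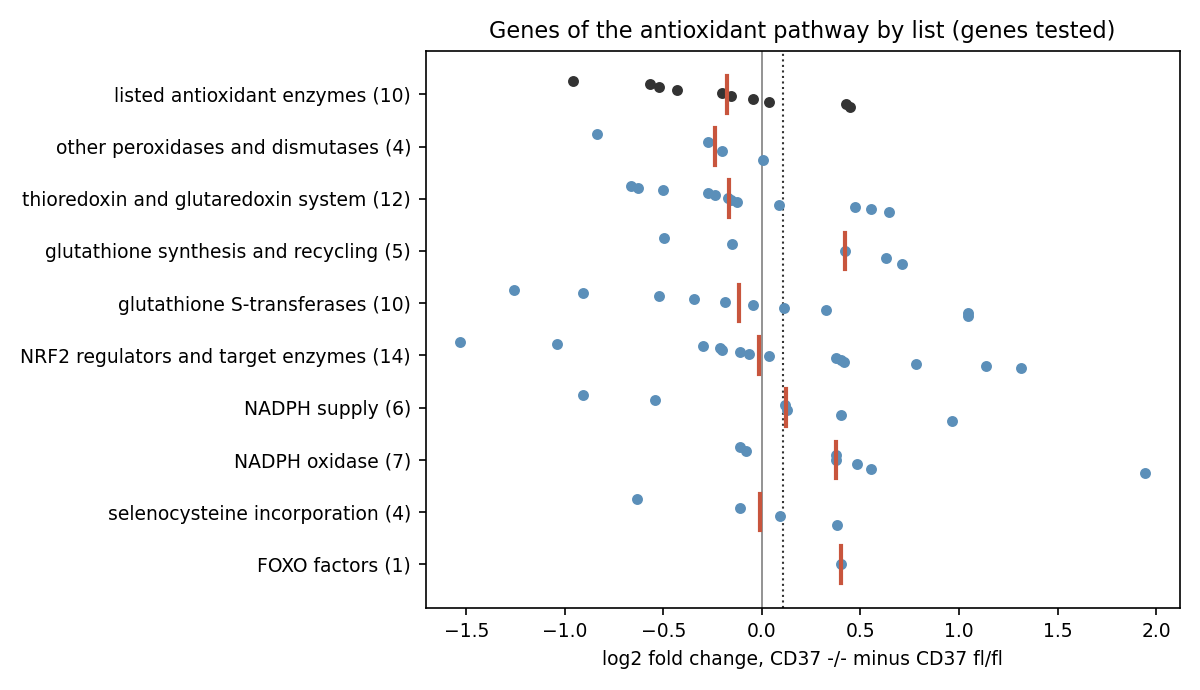
The log2 fold change (CD37 -/- minus CD37 fl/fl) of every tested gene, 1 point each, for the 10 antioxidant enzymes (black) and 9 lists of related genes (blue), with the number tested in brackets. Red bars are the medians and the dotted line is the median of all tested genes (0.11). The lists for glutathione synthesis and recycling (0.42) and NADPH oxidase (0.38) have medians above that line, and those of the enzymes (-0.18) and of the other peroxidases and dismutases (-0.24) lie below it.

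Other peroxidases and dismutases had 4 tested genes, 3 of them lower without overlap, beside 23.7% of all tested genes. Atox1, the copper chaperone, was at 20.5 and 11.3 in the controls and at 9.47 and 6.87 FPKM in CD37 -/- (log2 fold change -0.84, unadjusted p = 0.0477, adjusted p = 0.203, and -0.43 without CD37 fl/fl replicate 1). Prdx4, the peroxiredoxin of the endoplasmic reticulum, was at 1.23 and 1.34 against 1.00 and 0.782 (adjusted p = 0.35).

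The thioredoxin and glutaredoxin system, which recycles most peroxiredoxins, was mixed. Of its 12 tested genes 3 were higher and 5 lower without overlap, beside 38.2% and 23.7% of all tested genes. Txnrd1, the cytosolic thioredoxin reductase, was at 1.24 and 1.49 in the controls and 2.12 and 2.83 FPKM in CD37 -/- (log2 fold change 0.55, adjusted p = 0.164), and Txn1, its substrate thioredoxin, at 20.2 and 23.6 against 35.8 and 26.3 (0.47, adjusted p = 0.309, and 0.26 without CD37 -/- replicate 1). Glrx, a glutaredoxin, was at 5.47 and 5.91 against 7.80 and 11.4 (log2 fold change 0.65, adjusted p = 0.183, and 0.40 without CD37 -/- replicate 2). Txnip, the inhibitor of thioredoxin, was not analysed here. Srxn1, sulfiredoxin, which repairs overoxidised peroxiredoxins, overlapped between the groups at 4.70 and 5.22 against 4.92 and 5.75.

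Glutathione synthesis and recycling, which supply the glutathione peroxidases, had a median log2 fold change of 0.42 over 5 tested genes. Without overlap 3 of them were higher and 1 lower, beside 38.2% and 23.7% of all tested genes. Gsr, glutathione reductase, was at 18.4 and 16.8 in the controls and 27.8 and 30.9 FPKM in CD37 -/- (log2 fold change 0.71, standard error 0.23, adjusted p = 0.154). Gclc and Gclm, the subunits of the rate-limiting enzyme of glutathione synthesis, had a mean FPKM under 1 and entered only the fits with a wider filter. Gclm had 31 and 61 reads in the controls and 218 and 522 reads in CD37 -/- (limma-voom log2 fold change 2.66, standard error 0.55, adjusted p = 0.0718), and Gclc 105 and 260 against 441 and 848 (1.58, adjusted p = 0.0921). In the limma fit of all genes above 0, on log2(FPKM + 1), Gclm was at 0.61 (adjusted p = 0.265) and Gclc at 0.48 (adjusted p = 0.281).

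Glutathione S-transferases, which couple glutathione to reactive compounds, went in both directions. Of 10 tested genes 3 were higher and 4 lower without overlap, beside 38.2% and 23.7% of all tested genes. Gstt2 was at 3.39 and 5.74 in the controls and 1.66 and 2.16 FPKM in CD37 -/- (log2 fold change -0.91, adjusted p = 0.136), and Gstp3 at 1.22 and 3.39 against 0.458 and 0.169 (-1.26, adjusted p = 0.134), from 8 to 123 reads that near-identical Gstp genes may share. The microsomal Mgst1 was at 4.23 and 1.85 against 5.97 and 8.08 (1.04, adjusted p = 0.152), lowest in CD37 fl/fl replicate 2. Without that library Mgst1 was at 0.61, Gstp3 at -0.76 and Gstt2 at -0.60.

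NRF2, encoded by Nfe2l2, is the transcription factor that drives many of these genes under oxidative stress, KEAP1 holds it back, and small MAF proteins bind DNA with it. Mafk was at 2.7 and 2.65 in the controls and 6.30 and 7.94 FPKM in CD37 -/- (log2 fold change 1.14, standard error 0.19, adjusted p = 0.0735). Keap1 was at 1.08 and 1.34 against 3.37 and 5.92 (1.32, standard error 0.26, adjusted p = 0.0893). Nfe2l2 itself was at 1.99 and 1.90 against 2.50 and 3.34 (0.40, adjusted p = 0.244, and 0.25 without CD37 -/- replicate 2). All 3 were higher without overlap, and none passed the threshold.

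Of the 14 tested genes on the list of NRF2 regulators and target enzymes, 6 were higher and 4 lower without overlap. Parted by role, which was not planned, 5 of 6 regulators were higher and 0 lower, and 1 of 8 target genes was higher and 4 lower. Among all tested genes 38.2% were higher and 23.7% lower without overlap. The 8 are only part of the possible targets. Under the filter, Nqo1 was higher without overlap (0.335 and 0.196 against 0.594 and 0.676 FPKM), and Hmox2 and Me1 overlapped. Txnrd1, Gsr, Gclm and Gclc, all higher without overlap, and Srxn1, overlapping, were counted on other lists. Not all genes of those lists rose. Gstp1 was lower without overlap (34.5 and 34.3 against 24.4 and 22.9 FPKM), and Slc7a11 and Pgd overlapped. Hmox1, heme oxygenase, was at 3.45 and 2.58 in the controls and 3.77 and 8.92 FPKM in CD37 -/- (log2 fold change 0.78, adjusted p = 0.247), and the difference was 0.26 without CD37 -/- replicate 2 and 1.31 without CD37 -/- replicate 1. The ferritin chains that store iron were lower, Ftl1 at 363 and 237 against 79.0 and 129 (log2 fold change -1.53, standard error 0.38, adjusted p = 0.117) and Fth1 at 633 and 552 against 265 and 311 (-1.04, standard error 0.28, adjusted p = 0.132).

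NADPH feeds both arms of the system, since thioredoxin reductase and glutathione reductase draw on it and the NADPH oxidase of phagocytes makes superoxide from it. For its supply, 2 of 6 tested genes were higher and 2 lower without overlap, beside 38.2% and 23.7% of all tested genes. Nadk, NAD kinase, was at 4.01 and 3.56 in the controls and 6.90 and 10.05 FPKM in CD37 -/- (log2 fold change 0.97, adjusted p = 0.115), and Pgls, of the pentose phosphate pathway, at 53.8 and 42.8 against 30.3 and 20.7 (-0.91, adjusted p = 0.156).

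For the NADPH oxidase, 3 of 7 tested genes were higher and 0 lower without overlap, beside 38.2% and 23.7% of all tested genes. Ncf1, its cytosolic organizer p47phox, was at 4.50 and 4.64 in the controls and 14.7 and 28.3 FPKM in CD37 -/- (log2 fold change 1.95, standard error 0.33, adjusted p = 0.073). Cybb, the catalytic subunit, overlapped between the groups at 7.97 and 2.50 against 5.38 and 7.26 (adjusted p = 0.625), again lowest in CD37 fl/fl replicate 2, and turned to -0.31 without that library.

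The factors that put selenocysteine into GPX1 and GPX4 showed no shared direction. Without overlap 2 of 4 tested genes were higher and 1 lower, beside 38.2% and 23.7% of all tested genes. Sars, the seryl-tRNA synthetase, was at 15.6 and 19.0 in the controls and 11.5 and 10.05 FPKM in CD37 -/- (log2 fold change -0.64, adjusted p = 0.173). Of the FOXO factors, known regulators of Sod2 and Cat, 1 was tested, Foxo4 at 2.46 and 2.32 against 2.77 and 4.30 (log2 fold change 0.40, adjusted p = 0.304).

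NRF2 with its small MAF partner is known to bind antioxidant response elements with the core TGACNNNGC, and this core was searched on both strands of RefSeq promoters (GRCm38.p6, 250 bases before to 50 after the start). It was present in 4071 of 32851 promoters of that length (12.4%). Among the enzymes (Prdx6 had no entry), the core was found in the promoters of Prdx1 and Sod1. They are shown with the matched bases in capitals, in both cases on the opposite strand, beside those of Gclm and Txnrd1, chosen as examples from 18 genes of the other lists with a match.
Prdx1: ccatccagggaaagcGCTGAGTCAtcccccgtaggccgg
Sod1: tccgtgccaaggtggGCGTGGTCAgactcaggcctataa
Gclm: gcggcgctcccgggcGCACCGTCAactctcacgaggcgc
Txnrd1: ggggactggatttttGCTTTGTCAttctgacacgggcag
The match began at position -133 from the start in Prdx1 (promoter at chr4:116685349-116685648, plus strand), -56 in Sod1 (chr16:90220512-90220811, plus strand), -134 in Gclm (chr3:122245307-122245606, plus strand) and -92 in Txnrd1 (chr10:82858956-82859255, plus strand). A match of letters is no measurement of binding. The 2 enzymes with a match had log2 fold changes of -0.16 and -0.52. Of 13 other tested genes of the lists with a match, 5 were higher, 3 lower and 5 overlapping. Among all tested genes 38.2% were higher and 23.7% lower without overlap, so these counts lay near the shares over all genes. Both examples shown were higher in CD37 -/-, and Gclm was not among the 13, its mean FPKM being under 1.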

How the data were processed

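Poly(A) RNA of YFP+, c-kit+ LSCs from 2 CD37 fl/fl and 2 CD37 -/- samples was read in strand-specific libraries. Deposited by the authors were FPKM values, 1 column a library, neither logged nor pooled. The submitters' processing notes name fastp 0.20.1, STAR 2.7.7a, featureCounts 2.0.0, edgeR and the build mm39. The table holds no coordinates, so positions and lengths were taken from GENCODE M21 (GRCm38), which matched 17045 of 17104 genes. With its gene spans, introns included, 16843 genes gave whole reads in all 4 libraries (tolerance 0.05 reads, which chance meets for 10% of values), against 10.7% to 11.2% of values with exon length. These reads served for depth, exon RPKM and limma-voom only, and their totals are implied, not stated by the authors.

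Values were analysed as log2(FPKM + 1) with lmFit and eBayes (trend) in limma 3.58.1 (R 4.3.3) for the 6761 genes past the filter, without a block. P-values were adjusted by Benjamini-Hochberg, with a threshold of 0.05. Limma-voom used the 12901 genes with a mean of 10 or more reads. The code was tested on simulated data. Summaries were written in Python 3.11.15 (pandas 2.3.3) and plotted with matplotlib 3.10.9. The enzymes, the 9 lists of related genes and the 5 marker lists were chosen with earlier results of these data known. Named genes were all 10 enzymes, Cd37, 12 fixed genes (Prdx4, Txn1, Txnrd1, Txnip, Nfe2l2, Keap1, Srxn1, Gclc, Gclm, Gsr, Cybb and Hmox1), and from each list up to 3 rises and 3 falls with an unadjusted p under 0.05 and no overlap. Other names (Junb, Rnaseh2a, Scaf4, Msrb1, Cyba, Foxo4, Gstp1, Slc7a11, Pgd, the processed copies and marker genes) were added after their values were seen. Alternatives were a pseudocount of 0.1, all genes above 0, quantile normalization, TPM rescaling, robust eBayes, a replicate block, each library left out, exon length and limma-voom. Limma-voom with equal medians and the sum of Gpx4 with its copy were added after the data were seen. The number of libraries limits the precision.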

Additional observations from a re-analysis of the deposited data

How the results depend on the processing

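None of the 10 enzymes reached an adjusted p under 0.05 in the main fit or in any alternative. Prdx2, Gpx4 and Sod1 were negative and Prdx3 and Cat positive throughout. The replicate block, robust eBayes and the filter of all genes above 0 cannot change a fold change here, so their signs were fixed in advance. The sign turned under TPM rescaling for Prdx1 (0.21), Prdx5 (0.34) and Prdx6 (0.18), under quantile normalization for Prdx5 (0.36), Gpx1 (0.069), Sod2 (-0.14) and Srxn1 (-0.057), and with limma-voom at equal medians for Sod2 (-0.20) and Srxn1 (-0.14). Leaving out each library in turn gave -0.45 to 0.13 for Prdx1, -0.49 to 0.40 for Prdx5, -0.39 to -0.0070 for Prdx6, -0.010 to 0.084 for Sod2, -0.0069 to 0.18 for Srxn1 and -0.31 to 1.05 for Cybb. In these fits the lone library of a group is assumed to vary like those of the other group. The cause of the turns was not tested.

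The median of the enzymes was 0.19 under TPM rescaling and -0.43 at equal medians. Enzymes at an unadjusted p under 0.05 numbered 3 with TPM rescaling, 2 with all genes above 0, 2 with limma-voom, 4 at equal medians and 1 to 3 with a library left out (3 without CD37 fl/fl replicate 2 and 2 without CD37 -/- replicate 1). Of all genes tested, 33.4%, 17.2%, 25.3% and 23.9% were at that level in the first 4 of these, 20.3% and 23.6% in the last 2, and 24.0% in the main fit. Related genes higher at that level numbered 22 with TPM rescaling, 15 with all genes above 0, 16 with exon length, 18 with limma-voom and 4 to 9 with a library left out, and those lower 2 with TPM rescaling, 11 with exon length, 12 with limma-voom, 12 with quantile normalization, 19 at equal medians and 4 to 6 with a library left out. The lowest of both leave-out ranges came without CD37 -/- replicate 2, where 809 of 6761 genes were at that level, against 1626 in the main fit. More genes are tested with all genes above 0, exon length and limma-voom.

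The samples share only a replicate number, and deviations of same-numbered libraries correlated at -0.042. With the replicate block Prdx2 kept -0.96 (adjusted p = 0.144), and 73 of all 6761 genes passed the threshold, 0 of them an enzyme. Robust eBayes passed 88 and exon length 16 genes, again with 0 enzymes.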
